A study of Mus musculus with 10 samples.

Results

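In mouse colon organoids, 449 of 85680 open chromatin regions were found in AHR KO d4 ENR cultures alone. Each of the 10 Omni-ATAC-seq libraries had a peak list of its own. Overlapping peaks of all lists, by 1 bp or more, were joined into consensus regions, and a library called a region if one of its peaks fell there. The 449 regions had peaks in both libraries from AHR KO d4 ENR, in none of the 3 from WT d4 ENR and in none of the 5 from WENR. They covered 250.0 kb in all. The calls of all 10 libraries chose the regions, so these calls and the peak values behind them are given as a description, without a test.

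Organoids were grown from whole colon crypts of AHR KO mice, in which Vil-Cre deletes the floxed Ahr allele (Vil-Cre Ahr fl/fl), and of WT littermates, all on a C57BL/6 background. Villin-Cre acts in the intestinal epithelium, the tissue these organoids model. WENR is medium conditioned with Wnt3a that also contains EGF, Noggin and R-spondin1 with SB202190, A83-01 and nicotinamide, and it keeps the organoids stem cell-like. The d4 ENR organoids had been without Wnt3a, SB202190, A83-01 and nicotinamide for 4 days, which lets them differentiate. The AHR KO d4 ENR group had 2 libraries, as did WT WENR, the WT d4 ENR group had 3, as did AHR KO WENR, and 50000 live sorted cells went into each library. The labels do not say whether replicates of a group came from different mice, so the p-values below measure the spread between these libraries, which may be partly technical.

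AHR, the aryl hydrocarbon receptor, is a transcription factor that pairs with ARNT and binds DNA when it is bound by dietary, microbial or environmental ligands. In the colon epithelium, withdrawal of Wnt signals is followed by closing of stem cell enhancers and opening of enhancers used by mature cells. CDX2, a homeodomain factor that specifies intestinal identity, together with HNF4 and GATA factors, occupies many of the latter. TEAD factors, the DNA-binding partners of YAP, and AP-1 factors occupy enhancers used in the regenerating and fetal-like epithelium.

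A few of the 449 regions are shown here by the 300 bases at their midpoints (GRCm38, plus strand), with matches to the CDX2 or GATA strings, defined below, in capitals. The first is the region that ranked highest in the peak lists, and the next is a region among the 12 highest-ranking that held a CDX2 string. The last 2 are the regions among the 60 highest-ranking that held 2 CDX2 matches, an example chosen after their values were seen.
Mir99ahg intron, chr16:77315942-77316241: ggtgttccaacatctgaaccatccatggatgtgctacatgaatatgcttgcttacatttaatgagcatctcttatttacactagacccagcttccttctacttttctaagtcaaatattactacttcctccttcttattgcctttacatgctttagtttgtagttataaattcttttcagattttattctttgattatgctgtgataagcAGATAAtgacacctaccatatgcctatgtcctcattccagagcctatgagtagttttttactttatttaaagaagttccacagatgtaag
lincRNA exon with Bcl11a as nearest coding gene, chr11:24569681-24569980: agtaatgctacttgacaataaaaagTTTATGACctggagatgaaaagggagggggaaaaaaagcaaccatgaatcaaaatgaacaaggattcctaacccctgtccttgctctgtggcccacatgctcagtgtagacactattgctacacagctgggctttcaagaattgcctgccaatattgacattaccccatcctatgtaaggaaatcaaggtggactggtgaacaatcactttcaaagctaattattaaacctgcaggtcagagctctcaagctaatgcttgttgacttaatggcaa
intergenic region nearest Usp25, chr16:77210201-77210500: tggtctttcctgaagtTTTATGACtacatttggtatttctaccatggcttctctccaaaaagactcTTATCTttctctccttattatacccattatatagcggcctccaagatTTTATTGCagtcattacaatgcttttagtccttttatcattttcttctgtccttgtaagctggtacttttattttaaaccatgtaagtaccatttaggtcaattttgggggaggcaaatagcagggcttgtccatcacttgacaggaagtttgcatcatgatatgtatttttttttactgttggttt
Mettl7a2 intron, chr15:100357530-100357829: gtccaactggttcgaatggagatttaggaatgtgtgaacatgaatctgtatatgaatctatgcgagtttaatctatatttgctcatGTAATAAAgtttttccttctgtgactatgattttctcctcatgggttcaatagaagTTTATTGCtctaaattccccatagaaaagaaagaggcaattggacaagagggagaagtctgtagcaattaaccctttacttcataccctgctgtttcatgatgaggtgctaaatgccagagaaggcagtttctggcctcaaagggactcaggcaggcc
The first sequence holds a GATA string and no CDX2 string, and the third holds both, with the GATA match between the CDX2 matches.

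The whole peak lists differed between the groups in ways that touch every result below. Between 30354729 and 49126792 fragments per library lay behind 33433 to 65308 peaks. In d4 ENR, peaks held 33.8% and 44.2% of fragment coverage in the AHR KO libraries, but 14.1%, 24.4% and 30.9% in the WT libraries. Mean fragment length was 221 and 202 bp in the AHR KO and 200, 156 and 172 bp in the WT d4 ENR libraries. Neither measure overlapped between the genotypes in d4 ENR. The WENR libraries had 63.0% to 68.6% of coverage in peaks and mean fragment lengths of 235 to 255 bp. The part of these measures in the calls was not tested. Of 10 epithelial marker genes, 9 or 10 had a peak within 1 kb of a start in every library. Of 29 marker genes of immune, stromal, endothelial, muscle and neural cells, 9 to 11 had one in WENR libraries, 4 to 6 in WT d4 ENR and 6 in each AHR KO d4 ENR library.

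The 449 regions made up 0.524% of all consensus regions. The converse pattern, a call in all 3 WT d4 ENR libraries and in no other, held for 40 regions (0.0467%), and it is stricter, since it asks for 1 library more. Calls in exactly 2 of the 3 WT d4 ENR libraries and in no other library were found for 385 regions, which any of 3 pairs of libraries could give, so the numbers for the genotypes are not like for like. A total of 10095 regions were called in at least 1 d4 ENR library and in no WENR library, and the 449 regions were 4.45% of these. Among the 10095, 2214 were called in a single AHR KO d4 ENR library and 3869 in a single WT d4 ENR library. A further 543 had calls from both AHR KO and 1 WT library, 687 from both AHR KO and 2 WT libraries, and 272 in all 5 d4 ENR libraries. Among regions newly called in d4 ENR, a call in both AHR KO libraries thus came more often with at least 1 WT call than without any.

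The peaks that defined the regions were narrow and ranked low within their lists. Peak width had a median of 384 bp in AHR KO d4 ENR replicate 1 and 327 bp in replicate 2, against 815 and 724 bp over all peaks of these libraries. The fold enrichment of a peak over its local background ranged from 1.67 to 5.13 in replicate 1, with a median of 2.9, and from 1.56 to 5.13 in replicate 2, with a median of 2.91. Over the whole lists the medians were 3.76 and 4.0. The −log10 q value, the significance that the peak caller gave, had medians of 2.98 and 2.77, against 8.8 and 9.77 over all peaks.

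To compare peaks between lists, each was given the percentile of its −log10 q within its own list, where 100 is the most significant peak. The regions had a median percentile of 16.3 in replicate 1 and 13.0 in replicate 2. Of the 449 regions, 437 lay under percentile 50 of both lists, 133 were under percentile 5 in at least 1 list, and a single region was above percentile 50 in both. A −log10 q of at least 5 in both libraries was reached by 23 regions. Across the 449 regions the percentiles of the libraries had a Pearson r of 0.339, which describes regions that were all chosen from the same peaks.

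**Figure D1:**
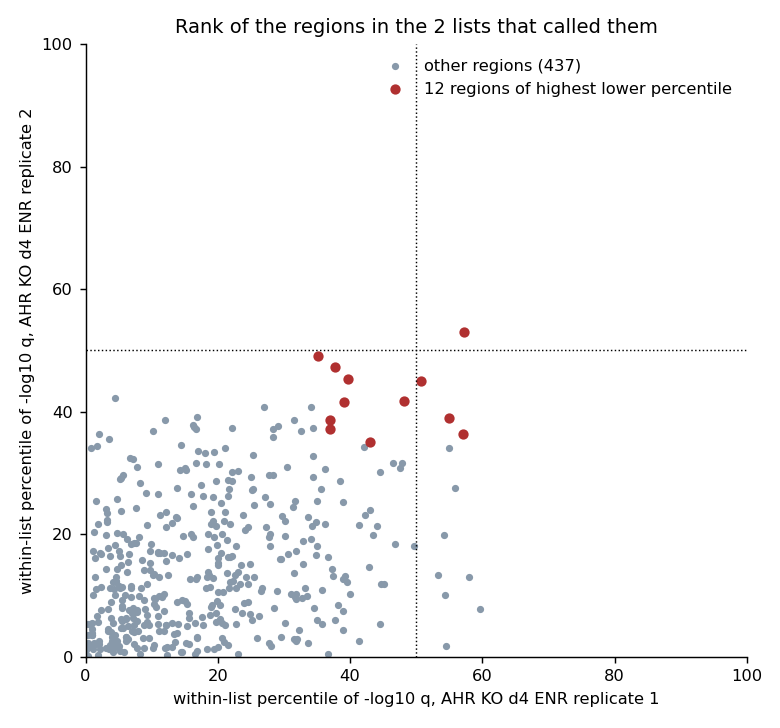
Within-list percentile of −log10 q for each of the 449 regions in AHR KO d4 ENR replicate 1 (x axis) and replicate 2 (y axis), 1 point per region, with the 12 regions of highest lower percentile in red and dotted lines at percentile 50. The points crowd the lower left corner, around medians of 16.3 and 13.0, and a single point lies above 50 on both axes.

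The highest-ranking region, chr16:77315753-77316430, lay in an intron of Mir99ahg, the long non-coding host transcript of a microRNA cluster, 232191 bp from the start of Usp25, a deubiquitinase gene. Its peaks had pileups, the mean fragment depth over the peak, of 26.1 and 24.1 in AHR KO d4 ENR replicates 1 and 2. Fold enrichment was 5.11 and 5.13, and the percentiles were 57.2 and 53.0. The nearest peak of any WT d4 ENR library was 127850 bp away and the nearest WENR peak 81916 bp away. A second of the 449 regions lay in an intron of the same transcript, at chr16:77329647-77331324, with fold enrichments of 3.59 and 4.03 and percentiles of 32.6 and 36.8. The intergenic region nearest Usp25 whose sequence is printed above, with fold enrichments of 3.91 and 3.66, lies at lower coordinates than both. The second intronic region and the intergenic one were singled out after their values were seen.

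Regions inside protein-coding genes made up 5 of the 12 highest-ranking. The region in an intron of Ect2l, a gene related to Ect2, had fold enrichments of 4.6 and 4.48 and percentiles of 50.8 and 45.0 (chr10:18159784-18160186). The region in Syn2, which encodes the synaptic vesicle protein synapsin II, lay 417 bp from a start, with fold enrichments of 3.93 and 4.32 (chr6:115213054-115213632). In Scg3, which encodes secretogranin III of the dense-core granules of endocrine cells, the fold enrichments were 3.79 and 4.17 and the percentiles 37.0 and 38.6 (chr9:75670642-75671238). Soft-masked repeats covered 49.7% of the central 300 bp at Scg3, against 14.3% at Syn2. All 3 genes thus had values close to each other in both libraries. The region in Smg1, a kinase of nonsense-mediated mRNA decay, had fold enrichments of 3.81 and 4.05 (chr7:118219772-118220070), with a WT d4 ENR peak 3637 bp away. The region in Lyn, a Src-family kinase, had fold enrichments of 4.11 and 3.94 (chr4:3767196-3767927) and held both a TEAD and an AP-1 string.

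The other 6 of the 12 highest-ranking regions lay outside protein-coding genes, some of them far from any. One overlapped an exon of the lincRNAs Gm12068 and 4933430M04Rik, 427451 bp from Bcl11a, which encodes a zinc finger repressor, with fold enrichments of 4.92 and 4.22 (chr11:24569617-24570043). The region nearest Ptchd4, a patched-domain gene 664425 bp away, had fold enrichments of 5.13 and 4.05 (chr17:41651271-41651773), and no WT d4 ENR peak lay within 716142 bp of it. The region nearest Kcna4, a voltage-gated potassium channel gene, was 865326 bp from its start, with fold enrichments of 3.79 and 4.56 (chr2:108156168-108157274). These 3 regions had pileups from 18.8 to 26.2, and no WENR peak lay within 48294 bp of any of them. The region 4516 bp from 1700017D01Rik had fold enrichments of 3.82 and 4.76 (chr19:11135053-11135731).

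A different profile was seen for the regions nearest Azin1, an inhibitor of antizyme in polyamine metabolism, and Slc25a26, the mitochondrial carrier of S-adenosylmethionine. At the Azin1 region (chr15:38468212-38468612) the pileups were 66 and 68.2, the fold enrichments 2.35 and 2.23. At the Slc25a26 region (chr6:94393250-94393484) the pileups were 52.4 and 68.5, the fold enrichments 2.2 and 2.45. Depth at both was among the highest of the 449 regions while the enrichment over the surroundings was below the median. WT d4 ENR peaks lay 1663 and 1589 bp away, so these regions sat beside chromatin called in WT libraries as well.

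At the lower edge of the rule, the region in the promoter of Car15, a carbonic anhydrase gene (chr16:17835544-17836765), had percentiles of 0.399 and 0.0497 and −log10 q values of 1.31 and 1.14. The region in an intron of Dmbt1, which encodes a secreted mucosal scavenger receptor protein (chr7:131049859-131050817), had percentiles of 0.144 and 1.12 and −log10 q values of 1.18 and 1.44. Just outside the rule stood 662 regions that exactly 1 library called besides both of AHR KO d4 ENR. WT d4 ENR replicate 3 was that library for 436 of them (65.9%), replicate 2 for 87 (13.1%) and replicate 1 for 20 (3.02%). These numbers follow the order of the shares of coverage in peaks, 30.9%, 24.4% and 14.1%. The WENR libraries accounted for 15 to 28 each. The excluded regions had median percentiles of 19.6 and 19.4 in the AHR KO d4 ENR libraries and 15.5 in the library that excluded them. The region nearest Tle3, a Groucho-family corepressor gene (chr9:61296416-61297017), was excluded by a peak of −log10 q 1.14 in WT d4 ENR replicate 2, at percentile 0.138 of that list.

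**Figure D2:**
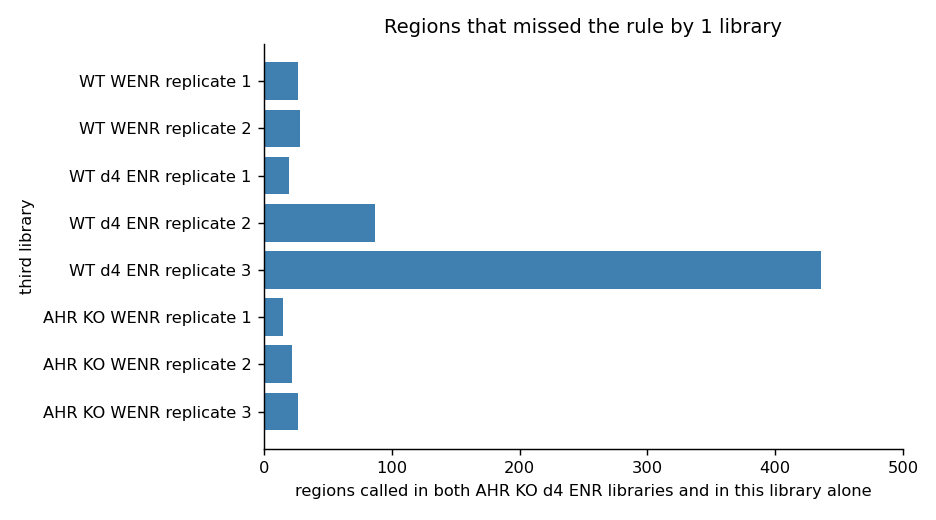
Number of regions (x axis) that both replicates of AHR KO d4 ENR and exactly 1 further library called, shown for each of the 8 further libraries (y axis), 662 regions in all. WT d4 ENR replicate 3 accounts for 436 regions, against 15 to 87 for each other library.

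Most of the 449 regions were distal. Their midpoints lay in introns for 192 regions (42.8%), between genes for 211 (47.0%), in exons for 18 (4.01%) and in promoters, from 1 kb before to 100 bp after a start, for 28 (6.24%). Over all 85680 regions these shares were 44.8%, 32.8%, 7.32% and 15.1%. Introns and intergenic sequence together held 89.8% of the 449 regions (95% Wilson interval 86.6 to 92.2), against 77.5% of all regions. They held 88.9% of the 2214 regions called in 1 AHR KO d4 ENR library alone, 92.3% of the 272 regions called in all d4 ENR and no WENR libraries, and 85.1% of the 1441 regions called in both AHR KO d4 ENR and all WENR but no WT d4 ENR libraries. The distal share was thus high in all 3 of these sets that no WENR library called, and regions called in WT d4 ENR alone were not annotated. The median distance to the nearest protein-coding start was 27443 bp, against 11900 bp over all regions and 18427 bp for those called in 1 AHR KO d4 ENR library. More than 100 kb from any such start lay 20.5% of the 449 and 10.5% of all regions.

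The regions were also lower in GC, with a median of 43.3% in the central 300 bp against 47.7% over all regions. Repeats covered over 50% of that window, counted as soft-masked bases, in 9.35% of them and in 8.28% of all regions. Every autosome and the X chromosome carried between 11 and 31 of them, and the Y chromosome none. Within 15 Mb of Ahr, on chromosome 12 from 35497974 to 35535038, lay 4 of the 449 regions (0.891%, against 0.738% of all regions). The nearest one was 988554 bp from the gene, and a peak list cannot show the deletion itself. Another of the 449 regions was found within 100 kb for 37 of them.

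Promoters of protein-coding genes held 16 of the 449 regions (3.56%). The highest-ranking of these was at Vmn1r201, a vomeronasal receptor gene, with fold enrichments of 4.4 and 3.73 in replicates 1 and 2 and percentiles of 47.5 and 30.8 (chr13:22474057-22474982), and it held a CDX2 string. At Gm609, an unnamed predicted gene, they were 4.06 and 3.38 (chr16:45492717-45493210). At Ntrk2, the receptor of brain-derived neurotrophic factor, they were 3.11 and 3.07, and at Otc, ornithine transcarbamylase of the urea cycle, which is also made in the intestine, 3.2 and 3.03. The remainder of the 12 highest-ranking promoters had fold enrichments between 2.49 and 3.61. These were the promoters of Pzp, a protease inhibitor, Acnat1, an acyl-CoA N-acyltransferase, Il1f6, the cytokine IL-36 alpha, Lipn, a lipase, Bche, Pnpla6, a lysophospholipase, Fam53b and Aqp12, an aquaporin. None of the 12 is a marker of a mature colon cell type in the lists used here.

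Bche and Mfhas1 were the genes with at least 3 of the 449 regions within 50 kb. Bche encodes butyrylcholinesterase, which hydrolyses choline esters. Its promoter region (chr3:73707988-73708697) had fold enrichments of 3.08 and 2.75, its intronic region (chr3:73693191-73693871) 4.25 and 3.79, and the region beyond its end (chr3:73626394-73628872) 3.03 and 2.87. The intronic and the downstream region each held a CDX2 string. At Mfhas1, a gene of the leucine-rich repeat GTPase family, an intronic region (chr8:35630123-35630554) had fold enrichments of 3.19 and 3.09, and the 2 regions beyond its end had 3.2 and 2.96 (chr8:35692546-35692856) and 3.14 and 2.59 (chr8:35695032-35695714). Exactly 2 regions lay within each of 10 annotated genes or transcripts, and none held more.

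One of the 449 regions lay in the gene or within 50 kb for 696 of 21938 protein-coding genes (3.17%), and in the gene itself for 216. The 12 gene lists covered colon cell types, stem cells, regeneration, YAP/TEAD and AHR, and also gastric genes and genes of other cell types. Of their 255 annotated genes, 8 had one of the 449 regions within 50 kb (3.14%), near the share of all genes. Enteroendocrine genes had the most, 3 of 22 (13.6%). These were Scg3, with its intronic region described above, Chgb, which encodes the granule protein chromogranin B, and Tph1, the rate-limiting enzyme of serotonin synthesis in enterochromaffin cells. The region 18976 bp from Chgb had fold enrichments of 2.48 and 2.9 and percentiles of 1.54 and 11. The region 28643 bp from Tph1 had fold enrichments of 2.76 and 2.44 and percentiles of 13.1 and 1.61. The regions of Chgb and Tph1 were thus among the weakest in 1 of the libraries, unlike that of Scg3. With 22 genes the list is short, and in the gene body alone the count was 1.

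In each of 4 further lists a single gene had a region within 50 kb. Among 27 fetal-like and regeneration genes this was Gja1, the gap junction protein connexin 43, at 49120 bp, with percentiles of 39.0 and 7.41. Among 27 Wnt target and stem cell genes it was Notum, a secreted Wnt deacylase, at 48109 bp, with percentiles of 3.94 and 2.6. Among 23 intestinal identity transcription factors it was Rxra, the retinoid X receptor alpha, with a region in an intron at percentiles of 4.74 and 14.4. Among 29 genes of other cell types it was Acta2, smooth muscle actin, at 27847 bp, with percentiles of 19.4 and 33.4. No region lay within 50 kb of any of 24 YAP/TEAD targets, 16 genes of the AHR pathway, 27 absorptive colonocyte genes, 21 goblet and secretory genes, 19 gastric genes or 10 epithelial markers. At a background of 3.17%, lists of this size would be near 0 or 1, so these counts do not set any list apart.

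To describe the sequence of the regions, strings for 15 factors were searched on both strands in the 300 bases at each midpoint. The CDX2 strings were GCAATAAA, GCCATAAA, GTAATAAA and GTCATAAA, and the GATA string was AGATAA. A CDX2 string was present in 83 of the 449 regions, 18.5% (95% Wilson interval 15.2 to 22.3), against 7.82% of all regions. Regions called in 1 AHR KO d4 ENR library alone had 11% (9.78 to 12.4), those called in all d4 ENR and no WENR libraries 10.7% (7.53 to 14.9), and those called in both AHR KO d4 ENR and all WENR but no WT d4 ENR libraries 11% (9.45 to 12.7). The interval of the 449 regions did not meet those of the sets named here. It did meet that of the regions called in AHR KO d4 ENR replicate 1 alone (16.1%, 13.9 to 18.7). Regions called in both AHR KO libraries and 1 WT d4 ENR library were not searched as a set of their own, so the CDX2 share is not shown to be particular to regions without a WT call. Each of the 4 CDX2 strings was more frequent than over all regions, with 26 (5.79% against 2.51%), 18 (4.01% against 1.84%), 18 (4.01% against 1.86%) and 26 regions (5.79% against 2.02%) in the order given. Intervals over regions cover counting error only and carry no variation between organoid cultures.

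A GATA string was present in 110 regions, 24.5% (20.7 to 28.7), against 14.7% of all regions and 18.3% of those called in 1 AHR KO d4 ENR library alone. The GATA interval met those of the sets called in all d4 ENR and no WENR libraries (17.3%, 13.3 to 22.2) and in both AHR KO d4 ENR and all WENR but no WT d4 ENR libraries (19.5%, 17.5 to 21.6). Both CDX2 and GATA strings were present in 27 regions, 6.01% against 1.63% of all regions, and at least 1 of them in 166, 37.0% against 20.9%. HNF4 strings (CAAAGTCCA or CAAAGTTCA) were present in 16 regions, 3.56% (2.21 to 5.71) against 2.14%. FOX strings (TGTTTAC) were present in 37, 8.24% (6.04 to 11.2) against 5.72%, and 9.21% of the regions called in 1 AHR KO d4 ENR library. An E-box of bHLH factors (CAGCTG) was present in 96, 21.4% (17.8 to 25.4) against 16.6%. For HNF4, FOX and the E-box the intervals met those of the regions called in 1 AHR KO d4 ENR library alone.

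The AP-1 and TEAD strings did not stand above all regions. The AP-1 string, TGACTCA or its reverse complement TGAGTCA, was present in 31 regions, 6.9% (4.91 to 9.63) against 14.9% of all regions. The share was near those of the regions called in all d4 ENR and no WENR libraries, 5.51%, and in 1 AHR KO d4 ENR library, 7.68%, while the regions also called in all WENR libraries had 16.2%. TEAD strings (ACATTCC or GCATTCC) were present in 48 regions, 10.7% (8.16 to 13.9) against 9.87%, and in 13.5% of the regions called in both AHR KO d4 ENR and all WENR but no WT d4 ENR libraries. The AHR:ARNT string TNGCGTG was present in 6 regions, 1.34% (0.614 to 2.88) against 3.71%, and that of ETS factors (CCGGAAGT) in 1, 0.223% against 1.02%. The CTCF string was present in 1 region, 0.223% (0.0393 to 1.25), against 2.89%. RUNX (TGTGGTT, 6.01% against 6.94%) and TCF/LEF strings (CTTTGAA or CTTTGAT, 14.5% against 11.6%) had intervals that included the share of all regions. HNF1 strings were present in 3 regions, 0.668% (0.227 to 1.95) against 0.107% of all regions, NFI strings in 2, 0.445% (0.122 to 1.61) against 0.0642%, and NF-kB strings in 2, 0.445% (0.122 to 1.61) against 0.299%. For HNF1 and NFI the share was above that of all regions but rests on 3 and 2 regions. None of the 15 was present in 125 regions, 27.8% against 36.3% of all regions.

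**Figure D3:**
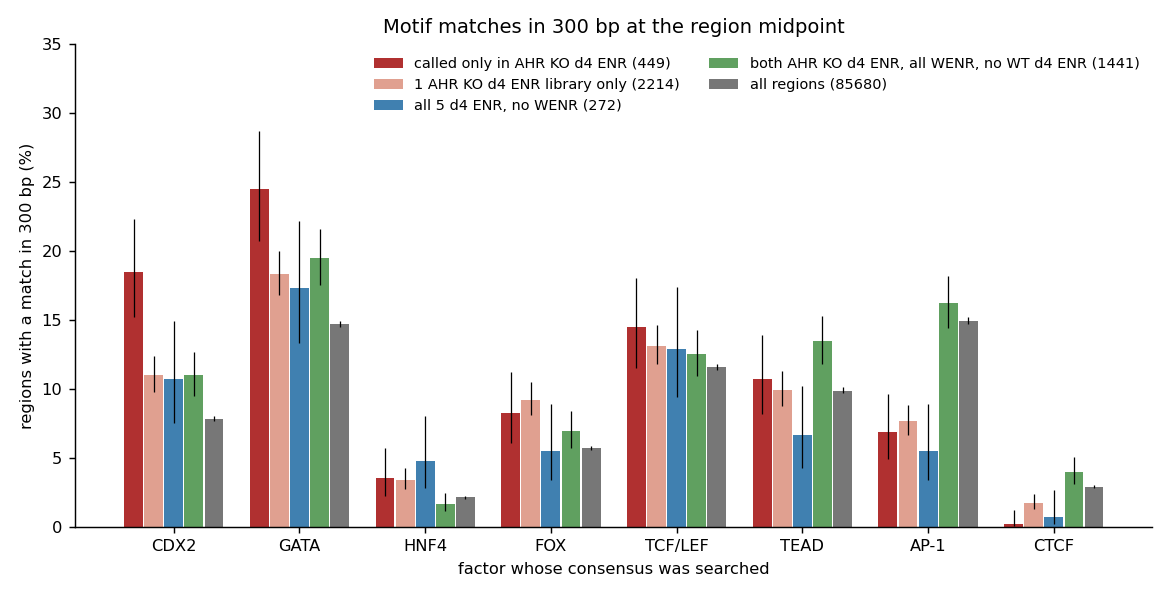
Share of regions with a match in the 300 bp at the midpoint (y axis, %) for 8 of the 15 factors (x axis) in the 449 regions, 3 other sets of regions and all 85680 regions, with 95% Wilson intervals as error bars. CDX2 (18.5% against 7.82% of all regions) stands above the other sets shown, of which the one called in a single AHR KO d4 ENR library pools both replicates. GATA (24.5% against 14.7%) has the highest share too, but its interval meets those of the sets without WENR calls in all d4 ENR libraries and with calls in all WENR libraries. AP-1 (6.9% against 14.9%) stands low, as in the other sets newly called in d4 ENR.

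CDX2 matches were most frequent in the bin of 100 bp just before the midpoint. The 100 bp before the midpoint held 9.35 CDX2 matches per 100 regions among the 449, against 3.13 over all regions, and the 100 bp after it 4.45 against 3.01. From 100 to 200 bp on the same 2 sides there were 4.01 against 2.25 and 5.35 against 2.37. Between 400 and 500 bp from the midpoint the numbers were 1.78 and 1.56 on the 2 sides, against 1.46 and 1.42. GATA matches were spread more evenly, from 5.57 to 10.7 per 100 regions in the 10 bins, against 5.46 to 5.73 over all regions. The difference between the sides for CDX2 has no meaning by itself, since the strand of a region is not defined.

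**Figure D4:**
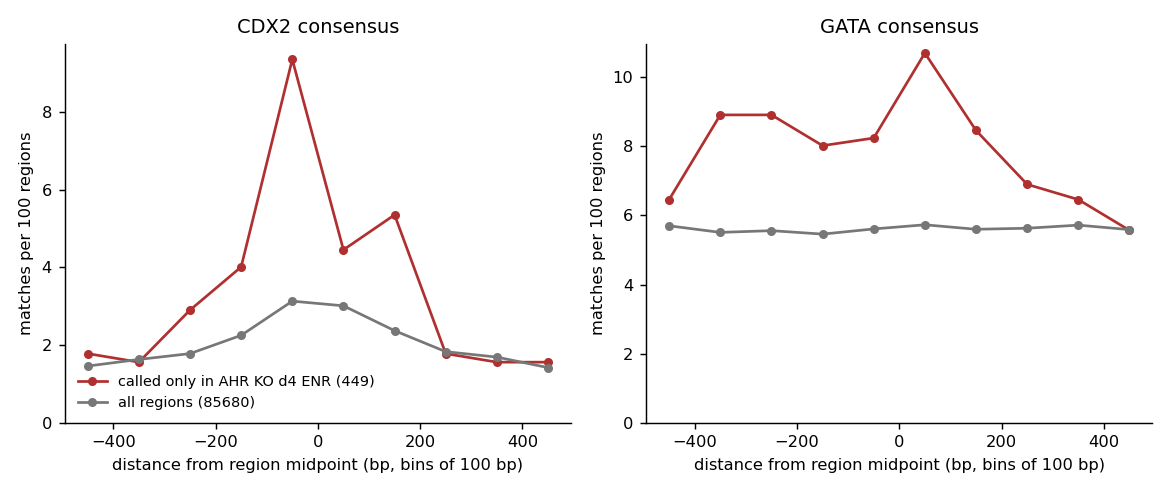
Matches per 100 regions (y axis) to the CDX2 strings (left) and the GATA string (right) in bins of 100 bp by distance from the region midpoint (x axis, bp), for the 449 regions (red) and all 85680 regions (grey). CDX2 matches reach 9.35 per 100 regions next to the midpoint against 3.13 over all regions and fall to the level of all regions at the flanks, while GATA matches exceed it over most of the window.

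Low GC content and one of the libraries moved with the CDX2 share. In windows under 40% GC, 24.0% (17.4 to 32.2) of 125 regions held a CDX2 string, against 17.0% of all regions in that band and 22.9% of those called in 1 AHR KO d4 ENR library. Between 40% and 50% GC it was 20.8% (16.1 to 26.4) of 236 regions, against 9.63% and 10.4% (8.77 to 12.3). At 50% GC and over it was 4.55% (1.78 to 11.1) of 88 regions, against 2.55% and 2.3% (1.35 to 3.9). The intervals of the 449 regions and of those called in 1 AHR KO d4 ENR library stayed apart in the middle band and overlapped in the other bands, of which the highest held 4 regions with a match. GATA strings were present in 29.6%, 25% and 15.9% of the regions in these bands, against 27.1%, 17.6% and 7.02% of all regions. AP-1 strings were below all regions in each band, at 4.0%, 8.9% and 5.68% against 16.6%, 18.5% and 10.2%. At 50% GC and over, the E-box was present in 44.3% (34.4 to 54.7) of the 88 regions. In that band it was present in 26.9% (23.4 to 30.7) of those called in 1 AHR KO d4 ENR library and 21.8% of all regions. In the lower bands the E-box intervals of the 449 regions and of that set overlapped. The AHR:ARNT string was present in 0.8%, 2.12% and 0.0% of the regions in these bands, against 1.54%, 2.61% and 5.75% of all regions. In the middle band its interval (0.908 to 4.86) included the share of all regions. The bands were added after the data were seen, and the part of GC content in the shares was not tested further.

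Among regions called in a single library of the study, 16.1% (13.9 to 18.7) of the 906 in AHR KO d4 ENR replicate 1 held a CDX2 string, but 7.49% (6.19 to 9.05) of the 1308 in AHR KO d4 ENR replicate 2. In the other 8 libraries such regions had between 3.75% and 11.5%. AHR KO d4 ENR replicate 1 was thus the highest of all libraries and replicate 2 was not. With replicate 1 left out, the rule found 1772 regions, of which 10.4% held a CDX2 string, against 7.79% of all regions, and with replicate 2 left out it found 1368, of which 16.7% did. GATA strings were present in 21% and 16.5% of the single-library regions of the AHR KO d4 ENR replicates, and in 12.2% to 18.5% of those of the other libraries. Ordered by the lower of their percentiles, the 150 highest-ranking of the 449 regions held a CDX2 string in 28.7% (22 to 36.4), the next 150 in 11.3% (7.2 to 17.4) and the last 149 in 15.4% (10.5 to 22.1). GATA strings had 27.3%, 19.3% and 26.8% in the same order, and AP-1 strings 7.33%, 6.67% and 6.71%.

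Whether a genotype difference in these strings extended beyond the chosen regions was examined in the regions that each d4 ENR library called and no WENR library did, with the 449 regions left out. This took regions from the AHR KO libraries alone, while regions called only in WT d4 ENR libraries stayed in. CDX2 strings were present in 13.5% and 9.11% of such regions in the AHR KO libraries (11.3 ± 3.08%, SD, n = 2) and in 5.24%, 7.94% and 9.68% in the WT libraries (7.62 ± 2.24%, SD, n = 3). The groups overlapped, and the difference of 3.67 percentage points was within the spread of the libraries (exact permutation test, 2-sided, p = 0.4, 0.533 after Benjamini-Hochberg adjustment over 4 factors). GATA strings were present in 19.9% and 17.9% for AHR KO against 13.0%, 17.1% and 17.4% for WT libraries. These did not overlap, and p = 0.2 is the smallest that the 10 arrangements of 2 against 3 libraries allow in an exact permutation test (0.4 adjusted). TEAD strings were present in 8.43% and 9.02% against 7.6%, 7.05% and 8.13% (exact permutation p = 0.2, 0.4 adjusted), and AP-1 strings in 6.72% and 7.48% against 4.67%, 7.37% and 6.78% (exact permutation p = 0.6, 0.6 adjusted). With 2 against 3 libraries no test here could pass 0.05.

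The surroundings of the regions were examined through the peaks within 10 kb of each region other than those in the region itself. Such a peak could belong to another of the 449 regions, which AHR KO d4 ENR libraries alone called. Another of them lay within 100 kb for 37 regions. The regions were also chosen for calls in this group, so the comparison in d4 ENR is not independent of the rule. In AHR KO d4 ENR, 54.6% and 53.9% of the 449 regions had such a neighbour in replicates 1 and 2, a mean of 54.2 ± 0.472% (SD, n = 2). In WT d4 ENR it was 33.0%, 43.7% and 49.9% in replicates 1 to 3, a mean of 42.2 ± 8.56% (SD, n = 3). Both AHR KO libraries were above all 3 WT libraries, and the difference was 12.1 percentage points (exact permutation test, 2-sided, p = 0.2, the smallest possible). Over all 85680 regions the shares were 58.1% and 63.7% for AHR KO against 44.4%, 55.4% and 60.4% for WT, a difference of 7.48 points with overlap (exact permutation p = 0.4). The WT order was that of their share of coverage in peaks for both sets of regions.

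In WENR, the share was 48.8% and 50.1% in WT (49.4 ± 0.945%, SD, n = 2) and 50.1%, 48.3% and 48.3% in AHR KO libraries (48.9 ± 1.03%, SD, n = 3), a difference of −0.52 points within the spread (exact permutation test, 2-sided, p = 0.6). The difference between media in the effect of genotype was 12.6 points (exact permutation test within media, 2-sided, p = 0.06, 100 arrangements), against 6.58 points over all regions (exact permutation p = 0.38), and it did not pass 0.05. It contains the genotype comparison in d4 ENR, so it is not independent of the rule either, and no conclusion is drawn from its p-value. Averaged over genotypes, d4 ENR and WENR differed by −0.984 points at the 449 regions (exact permutation test within genotypes, 2-sided, p = 0.92) and by −10.2 points over all regions (exact permutation p = 0.02, the smallest possible). With all lists shortened to 33433 peaks, the genotype difference in d4 ENR was 1.72 points (exact permutation p = 0.8) and the difference between media in the effect of genotype 4.01 points (exact permutation p = 0.08). The medium difference at the 449 regions turned to 3.29 points (exact permutation p = 0.02) when the lists were shortened in this way, a change that also replaced most of the regions, and became −9.67 points (exact permutation p = 0.02) when neighbours needed a −log10 q of at least 5. No direction is therefore given for the medium.

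**Figure D5:**
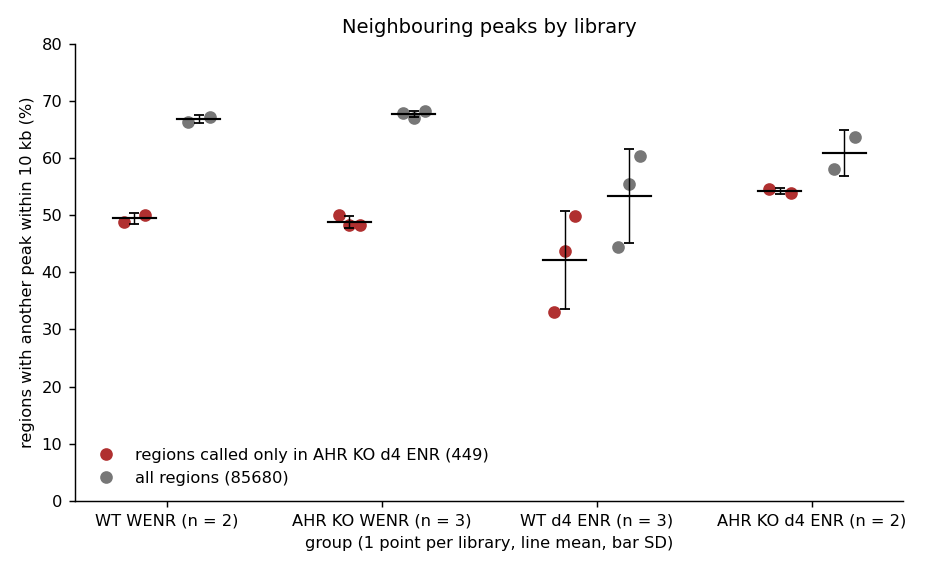
Share of regions with another peak within 10 kb (y axis, %) in each library, by group (x axis), for the 449 regions (red) and all 85680 regions (grey); points are libraries, lines group means and bars SD. At the 449 regions both AHR KO d4 ENR libraries (54.6% and 53.9%) lie above the 3 WT d4 ENR libraries (33.0% to 49.9%), and the WENR libraries lie between 48.3% and 50.1%.

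Many of the regions lay in chromatin that was already called elsewhere nearby. In all 10 libraries 126 regions had a neighbour within 10 kb, 195 had one in all 5 WENR libraries, and 157 had none in any library. For 16, AHR KO d4 ENR replicates 1 and 2 both had a neighbour and no WT d4 ENR library did. The nearest WT d4 ENR peak was at a median distance of 8973 bp and the nearest WENR peak at 8089 bp. Within 1 kb of a WT d4 ENR peak lay 9 of the 449 regions, and within 200 bp none. Within 1 kb of a WENR peak lay 9 as well, and within 200 bp 1, in an intron of Arhgap18, which was 11 bp from that peak and is named after its values were seen.

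The choice of regions depended on the depth to which each list was read. With every list shortened to 33433 peaks, the length of the shortest, 233 regions met the rule, and 5 of the 449 overlapped one of them. With peaks of −log10 q of at least 5 alone, 281 met it, and 23 of the 449 overlapped one of these. In the 233 regions CDX2 strings were present in 13.7% (against 7.88% of all regions of that setting) and GATA strings in 26.6% (against 13.6%), and in the 281 regions in 13.5% (against 8.05%) and 21% (against 14.2%). The strings were thus also more frequent than over all regions in these sets, at a lower share for CDX2. Most regions of these sets did not meet the rule on the full lists, so their shares do not describe the 449 regions. The other sets of regions compared above were not recomputed at these settings. Without WT d4 ENR replicate 3 the rule found 887 regions, and the share with a CDX2 string was 16.6%.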

How the data were processed

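The 10 Omni-ATAC-seq libraries were grouped by genotype and medium from the sample labels. The authors ran the nf-core/atacseq pipeline, with trimming and alignment to GRCm38 by BWA, and made a list of broad peaks for each unpooled library with MACS 2.2.7.1, which had no control library, thresholds on q of 0.05 (narrow) and 0.1 (broad) and a 10000 bp background window. The deposited values of each peak are the pileup, a coverage signal not scaled for library size, the fold enrichment over local background (a ratio), and the −log10 of p and of q. No counts per region were used here, so a region without a peak fell short of the threshold at 30354729 to 49126792 fragments and need not be closed.

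Peaks sharing at least 1 bp were merged. Midpoints were assigned to promoters, exons, introns or intergenic sequence of GENCODE mouse release M21, in that order. Sequences were read from the RefSeq GRCm38 genome. Shares carry 95% Wilson intervals, which cover counting error only. Tests between libraries were exact and by permutation, with a 2-sided p of 2 times the smaller tail. Named are the 12 regions with the highest lower percentile, the 12 highest-ranking in coding promoters, genes of the lists with a region within 50 kb, genes with 3 or more, Ahr, and the 2 regions on each side of the rule's edge. A few items that this naming covers are not reported here. The regions, lists and strings were chosen with earlier results of these data known. All 150 regions of this pattern planted among 5000 simulated sites were recovered. The simulation had no missed calls and no differences in depth, so it checks the code alone. Python 3.11.15, numpy 2.4.6, pandas 2.3.3, scipy 1.17.1 and matplotlib 3.10.9 were used.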

Additional observations from a re-analysis of the deposited data

How the results depend on the processing

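The number of regions was 233 with lists of equal length, 281 with a −log10 q of at least 5 and 708 when peaks had to cover at least 50% of a region, and ranged from 464 to 1772 when each library was left out in turn (887 without WT d4 ENR replicate 3, 1368 and 1772 without AHR KO d4 ENR replicates 2 and 1). The intronic and intergenic share was 79.7% with promoters of 3 kb on each side (64.1% of all regions), and 89.0% to 90.2% with each library left out.

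Motif shares were compared as the ratio of the share in the regions to that in all regions. For CDX2 this ratio was 2.36, with 1.74 for lists of equal length, 1.68 for a −log10 q of at least 5, 1.41 under 40% GC, 1.78 at 50% GC and over, and 1.33 to 2.43 with each library left out, lowest without AHR KO d4 ENR replicate 1. For GATA it was 1.67, with 1.95 for lists of equal length, 1.09 under 40% GC, 2.27 at 50% GC and over, and 1.25 to 1.68 with each library left out. For AP-1 it was 0.241 under 40% GC, and 0.425 to 0.534 with each library left out. Under 40% GC the FOX ratio fell to 0.959, and at 50% GC and over the HNF4 ratio was 0.0. The cause was not tested.

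For neighbouring peaks, the genotype difference in d4 ENR, 12.1 points, was 1.72 for lists of equal length, 7.13 at 50 kb, and 7.46 to 15.9 with each library left out (7.46 without WT d4 ENR replicate 1), with no change of sign. In WENR it was 0.631 points at 50 kb and −1.19 to 0.148 with each library left out, with the sign changing without WT WENR replicate 2. The difference between media was 3.29 points for lists of equal length, −9.67 at a −log10 q of at least 5, and −2.91 to 1.32 with each library left out, with the sign changing without WT d4 ENR replicate 1. The difference between media in the effect of genotype, 12.6 points, was 4.01 for lists of equal length, 6.5 at 50 kb, 7.98 to 16.4 with each library left out (7.98 without WT d4 ENR replicate 1), and 13.2 points (exact permutation p = 0.0333) without AHR KO WENR replicate 1. As the rule chose the regions by their d4 ENR calls, this p-value is not independent of the rule.

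Deviations from group means in libraries with the same replicate number had correlations of 0.0256 to 0.265 between genotypes and −0.107 to 0.021 between media, so the numbers were not taken as pairs. With the replicate number as a block, the differences were 15.9 points for genotype in d4 ENR, −0.223 for genotype in WENR and −3.06 for the medium (exact permutation p = 0.5, 1.0 and 0.625, where 0.5 is the smallest possible for genotype and 0.125 for the medium). Gene list counts at 100 kb were 16 of 255 (6.27%), against 5.45% of all coding genes. Of the 449 regions, 437 lie under percentile 50 of both lists that called them, and the part of depth in their calls was not tested.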
